A study of Mus musculus with 16 samples.

Results

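Doxycycline (DOX), the inducer of tetracycline-regulated gene expression systems, also inhibits the catalytic activity of matrix metalloproteinases. The transcripts of 10 genes of this system were followed here, the proteases Mmp2, Mmp7, Mmp9, Mmp10, Mmp13, Mmp14 and Mmp15 and the tissue inhibitors of metalloproteinases Timp1, Timp2 and Timp3. They were picked by gene symbol from a list and are 10 of the 54393 genes in the count table. The cells were mIMCD3, a wild-type line of mouse kidney epithelium that was set up from the inner medulla of an SV40-transgenic animal and stands for collecting duct cells. All cells had grown for 10 days on permeable filters in a serum-containing medium with added growth factors and hormones, and then received either DOX at 2 µg/mL or its vehicle DMSO, renewed every day, for 3 or 6 days. The resulting 4 groups (DMSO and DOX at each time) held 4 libraries each, and every group shared the line and the medium, so that the data describe 1 cell line in 1 culture condition. The sources used here do not say whether the replicates were separate cultures on separate days, and the p-values measure the spread between these libraries, which may be technical.

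Matrix metalloproteinases are zinc-dependent proteases that are made as inactive precursors. Most are secreted, while Mmp14 and Mmp15 encode membrane-anchored forms that work at the cell surface. Timp proteins bind the active site of the proteases and block it. Timp2 has a second role, since together with Mmp14 it forms the surface complex in which the Mmp2 precursor is activated. In kidney, tubular epithelium is a known source of Mmp7, whose product cleaves E-cadherin and matrix proteins. The libraries measured transcripts only, and give no protein level and no enzyme activity.

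The libraries held 16933343 to 23960860 estimated counts, and log2 CPM (counts scaled to library size) of replicates correlated at Pearson's r of 0.981 to 0.992 across genes. The markers of the labelled epithelium were present, as all 10 kidney epithelial genes had means of at least 1 TPM (transcript abundance scaled for length and depth), with summed levels of 2557 to 3150 TPM in DMSO and 1855 to 2231 TPM in DOX libraries. The 8 principal cell markers were low, with sums of 4.36 to 6.38 TPM in DMSO and 1.70 to 3.43 TPM in DOX libraries. Aqp2, the vasopressin-regulated water channel, had a highest group mean of 0.242 TPM. Scnn1a, a subunit of the epithelial sodium channel, fell with DOX (log2 fold change −1.05 and −1.48 at 3 and 6 days, edgeR adjusted p = 8.96e-06 and 2.13e-08). The 7 fibroblast markers summed to 0.131 to 1.15 TPM and the 5 endothelial ones to 0.511 to 1.46 TPM in all libraries. Of 6 macrophage and leukocyte markers only Cd68 and Csf1r reached 1 TPM, and their list summed to 24.8 to 32.6 TPM in DMSO and 10.8 to 16.6 TPM in DOX libraries. Ptprc, the pan-leukocyte marker, had 64 and 29 counts summed over the DMSO and DOX libraries at 3 days and 49 and 24 at 6 days, with no overlap in CPM. Adgre1, Itgam and Tyrobp had group means of at most 0.0408 TPM. The epithelial, principal cell and macrophage sums in TPM were thus all lower with DOX, as were several members described below, and their part in those results was not tested. Of the 10 epithelial markers edgeR called 4 lower at 3 days and 5 at 6 days and 0 higher, beside 7.22% and 11.6% of all tested genes called lower. The other epithelial markers were not called.

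In vehicle-treated cells Timp2 stood far above the other members. Over the 8 DMSO libraries Timp2 had 170 ± 12.3 TPM (SD, n = 8) and ranked 715 of 53354 genes. Timp1, an inhibitor of most secreted metalloproteinases, had 11.9 ± 1.08 TPM. Timp3, which unlike the others is held in the matrix, had 6.40 ± 0.930 TPM. Between Timp1 and Timp3 stood the most abundant protease among the members, Mmp7, with 9.08 ± 0.978 TPM. Mmp15 followed with 2.73 ± 0.435 TPM. Mmp14 had 1.64 ± 0.230 TPM. In this order the ranges of Timp1 and Mmp7, and of Mmp7 and Timp3, overlapped between libraries, although all 8 libraries kept the order. The ranges of Timp2 and Timp1, Timp3 and Mmp15, Mmp15 and Mmp14, and Mmp14 and Mmp13 did not overlap.

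The remaining 4 proteases were near the detection limit, at which a count of 0 in a library allows up to 3 counts, or 0.125 to 0.177 CPM (counting error only). Mmp13, a collagenase, had 3 to 14 counts per library. Mmp10, a stromelysin, had 0 to 6 counts. The gelatinases were lower still, Mmp2 with 0 to 3 counts and Mmp9 with 0 to 2 counts, and Mmp9 was at 0 in 11 of 16 libraries. These 4 genes did not pass the filter of 1 CPM in at least 4 libraries, which left 6 of the 10 members among the 13234 genes tested. Transcripts of Mmp2, the protease activated in the surface complex of Mmp14 and Timp2, thus did not exceed 3 counts in any library. Among 16 other matrix metalloproteinases listed with the members, 1 passed the filter, and this gene, Mmp11, had 15.9 ± 2.93 TPM in the DMSO libraries at 3 days (SD, n = 4), more than any member protease.

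**Figure D1:**
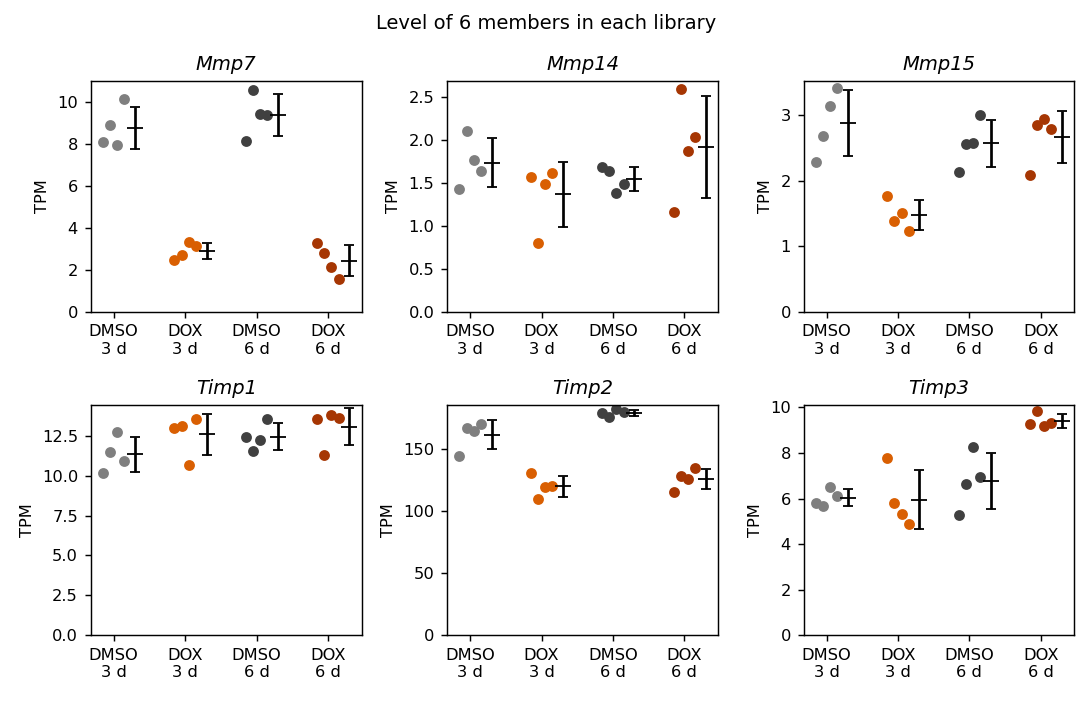
Level in TPM of the 6 members that passed the filter, in each of the 16 libraries. Each point is 1 library, the bars give the group mean ± SD (n = 4), and all axes start at 0. The DOX libraries of Mmp7 lie at 1.58 to 3.32 TPM and the DMSO libraries at 7.98 to 10.6 TPM, those of Mmp15 are low at 3 days only, and Timp3 is highest with DOX at 6 days.

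Mmp7 (ENSMUSG00000018623, GRCm38 chr9:7692090-7699585, + strand) gave the largest change of the members. At 3 days its level was 8.09, 8.90, 7.98 and 10.1 TPM in the DMSO libraries and 2.46, 2.69, 3.32 and 3.14 TPM in the DOX libraries. At 6 days the DMSO libraries had 8.14, 10.6, 9.45 and 9.38 TPM and the DOX libraries 3.27, 2.79, 2.11 and 1.58 TPM. Every DOX library was below every DMSO library at both times. Mmp7 fell 2.64-fold at 3 days (log2 fold change −1.40 ± 0.174 SE, edgeR adjusted p = 1.86e-05) and 3.66-fold at 6 days (−1.87 ± 0.178, edgeR adjusted p = 1.15e-07). The counts behind these values were 104 to 174 per DMSO library and 24 to 55 per DOX library. In RNA from whole cultures, fewer cells making a transcript and less transcript per cell cannot be told apart. The effects at both times differed by −0.47 ± 0.251 on the log2 scale, which did not pass the test (edgeR adjusted p = 0.203).

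Mmp7 lies in the cluster of metalloproteinase genes on chromosome 9, as do Mmp10 and Mmp13. The stretches before their transcript starts are shown because they share letters that the other members' windows do not hold. They are parts of RefSeq windows of build GRCm38.p6, given 5′ to 3′, with part of the Timp3 window for contrast. The stretches of Mmp10 and Mmp13 are cut to 130 bases, and that of Timp3 stops before its RefSeq start. Capitals mark the AP-1 site, which Fos and Jun dimers bind and which was searched as TGACTCA on both strands (its other strand reads TGAGTCA). They also mark the TATA box, searched as TATAAA on both strands. The PEA3 site, which Ets factors bind, was searched as AGGAAG on both strands and is in capitals too.
Mmp7, chr9:7691840-7692089, + strand: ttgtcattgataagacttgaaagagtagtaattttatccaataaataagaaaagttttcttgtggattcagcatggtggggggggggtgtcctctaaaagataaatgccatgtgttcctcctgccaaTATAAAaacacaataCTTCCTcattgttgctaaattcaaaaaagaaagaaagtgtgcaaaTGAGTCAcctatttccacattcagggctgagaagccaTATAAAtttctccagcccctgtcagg
Mmp10, chr9:7502212-7502341, + strand: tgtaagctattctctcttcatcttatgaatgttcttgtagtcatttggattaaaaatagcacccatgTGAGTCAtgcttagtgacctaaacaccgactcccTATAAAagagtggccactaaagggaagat
Mmp13, chr9:7272384-7272513, + strand: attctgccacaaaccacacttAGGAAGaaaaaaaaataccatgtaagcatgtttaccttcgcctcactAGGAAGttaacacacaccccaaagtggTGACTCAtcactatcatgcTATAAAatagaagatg
Timp3, chr10:86300162-86300371, + strand: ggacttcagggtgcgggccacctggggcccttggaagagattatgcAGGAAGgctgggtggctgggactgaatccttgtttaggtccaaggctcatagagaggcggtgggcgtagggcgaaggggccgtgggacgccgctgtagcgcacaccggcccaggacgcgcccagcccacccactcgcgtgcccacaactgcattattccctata

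Motifs were searched on both strands of the 300-base windows (250 bases before and 50 after the RefSeq start) of 8 members. No match overlapped another. Mmp7 has a second RefSeq window further downstream, which held 1 PEA3 match and no AP-1, TATA box or GC box match, and the values below are for the first. The AP-1 letters began 63 bases before the start in Mmp7 and in Mmp10, and 35 bases before it in Mmp13. The windows of Mmp14, Mmp15, Timp1, Timp2 and Timp3 did not hold them. Of 32851 RefSeq windows of the same length, 5.20% held them. The TATA box letters stood 26, 29 and 16 bases before the start in Mmp7, Mmp10 and Mmp13, with another match 123 bases before it in Mmp7, were absent from the windows of the other 5 members, and were present in 13.6% of all windows. The GC box, searched as GGGCGG on both strands and found in 35.7% of all windows, was in the windows of Mmp14, Mmp15, Timp1, Timp2 and Timp3 and in none of the first 3. Both GC box matches of Timp3 lie past the end of its printed stretch. The PEA3 letters were in 35.4% of all windows and in 5 of the 8 members. A match describes letters and is no sign of a bound site.

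**Figure D2:**
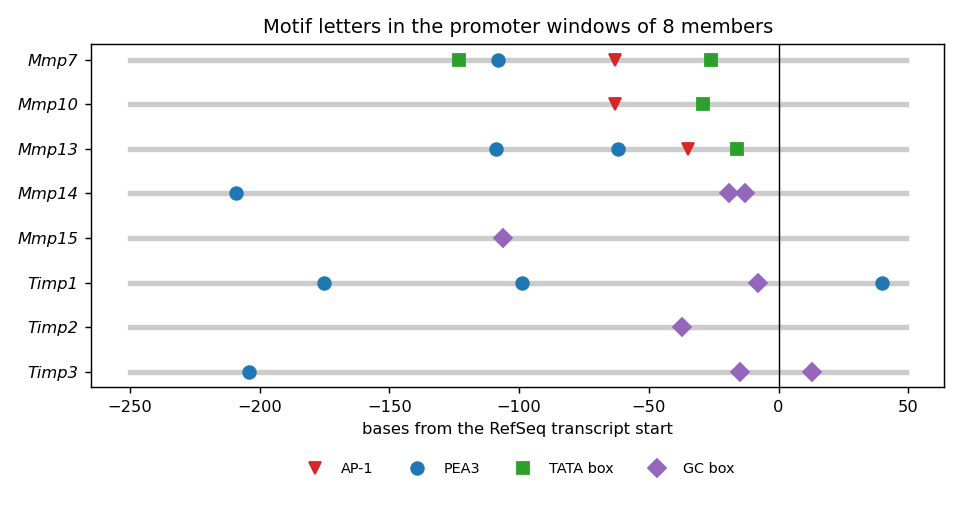
Position of 4 motifs in the promoter windows of 8 members, in bases from the RefSeq transcript start (vertical line). Grey bars are the 300-base windows and each mark is the first base of a match on either strand. AP-1 and TATA box matches are in Mmp7, Mmp10 and Mmp13, and GC box matches in the other 5 members.

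Of the membrane-anchored proteases, Mmp15 was called and Mmp14 was not. Whether their changes differ from each other was not tested. Mmp15 (ENSMUSG00000031790, chr8:95352268-95375080, + strand) had 2.28, 2.68, 3.15 and 3.41 TPM in the DMSO and 1.77, 1.38, 1.51 and 1.23 TPM in the DOX libraries at 3 days. At 6 days it had 2.13, 2.57, 2.58 and 3.00 TPM in the DMSO and 2.08, 2.85, 2.94 and 2.79 TPM in the DOX libraries. The groups were apart at 3 days, with all DOX libraries below all DMSO libraries, and overlapped at 6 days. Mmp15 fell 1.67-fold at 3 days (−0.74 ± 0.103, edgeR adjusted p = 0.000339), while its log2 fold change at 6 days was 0.07 ± 0.0988 (edgeR adjusted p = 1.00). The difference between these effects was 0.81 ± 0.143 on the log2 scale and passed the test (edgeR adjusted p = 0.00127). From 3 to 6 days with DOX, Mmp15 rose 1.63-fold (0.70 ± 0.103, edgeR adjusted p = 0.00303), a call that was lost on the log2(TPM + 1) scale (limma adjusted p = 0.311).

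Mmp14 (ENSMUSG00000000957, chr14:54431612-54445364, + strand), whose product is the main surface activator of the Mmp2 precursor, did not pass the test at either time. Its DMSO libraries had 1.44 to 2.11 TPM at 3 days and 1.39 to 1.68 TPM at 6 days. The DOX libraries had 1.57, 0.804, 1.49 and 1.61 TPM at 3 days and 1.16, 2.60, 1.88 and 2.03 TPM at 6 days. The groups overlapped at both times, with 1 DOX library low at 3 days and a wide scatter of the DOX libraries at 6 days. The log2 fold changes were −0.32 ± 0.173 and 0.12 ± 0.171 (edgeR adjusted p = 0.544 and 1.00).

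The 4 proteases below the filter were compared by 8 exact permutation tests, a design in which 1 gene at the smallest possible p does not pass adjustment, so these tests do not show that the genes were alike. Mmp10 (chr9:7502352-7510240) had 3, 6, 5 and 4 counts in the DMSO and 1, 2, 2 and 3 counts in the DOX libraries at 6 days, with means of 0.231 and 0.0933 CPM. The CPM of the groups did not overlap, and the exact two-sided permutation test over 70 arrangements gave p = 0.0286, the smallest it can give, and 0.229 after adjustment. At 3 days Mmp10 had 0, 5, 2 and 5 counts with DMSO and 1, 3.83, 0 and 2 counts with DOX (exact permutation p = 0.457). Mmp13 (chr9:7272514-7283331) had means of 0.405 CPM with DMSO and 0.310 CPM with DOX at 3 days, and 0.491 and 0.395 CPM at 6 days (exact permutation p = 0.200 and 0.486). Neither gelatinase gave a p under 0.6, and Mmp9 was at 0 in all 8 libraries at 6 days.

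The inhibitors went in different directions. Timp2 (ENSMUSG00000017466, chr11:118301069-118355740, − strand) had 144, 166, 164 and 170 TPM in the DMSO and 130, 109, 119 and 120 TPM in the DOX libraries at 3 days. At 6 days the levels were 179, 176, 182 and 180 TPM with DMSO and 115, 128, 126 and 134 TPM with DOX. All DOX libraries were below all DMSO libraries of their time. The fall of 1.35-fold at 6 days passed the test (−0.43 ± 0.0483, edgeR adjusted p = 0.00205), and was not called when genes of low count were kept in the fit (adjusted p = 0.0862). At 3 days the log2 fold change of −0.35 ± 0.0483 did not pass the test against a fold of 1.2 (edgeR adjusted p = 0.0891), and without replicate 1 of DOX at 3 days it did (adjusted p = 0.0451). The effects at 6 and 3 days differed by −0.08 ± 0.0682 (edgeR adjusted p = 0.440).

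Timp3 (ENSMUSG00000020044, chr10:86300372-86349506, + strand), whose product also inhibits ADAM proteases, moved the other way at 6 days. It had 5.27, 6.64, 8.25 and 6.95 TPM in the DMSO and 9.27, 9.85, 9.19 and 9.30 TPM in the DOX libraries, so that every DOX library was above every DMSO library. It rose 1.47-fold (0.55 ± 0.101, edgeR adjusted p = 0.00690), and the call was lost with DESeq2 (adjusted p = 0.0554) and on the log2(TPM + 1) scale (limma adjusted p = 0.490). At 3 days the DMSO libraries had 5.81, 5.67, 6.52 and 6.11 TPM and the DOX libraries 7.80, 5.82, 5.32 and 4.86 TPM. These TPM values overlapped, with 1 DOX library above, 1 within and 2 below the range of the DMSO libraries. In CPM, the scale of the tests, the DOX libraries had 31.5, 25.5, 24.4 and 23.3 and the DMSO libraries 21.4 to 25.9, so that no DOX library was below. The log2 fold change at 3 days was 0.20 ± 0.104 (edgeR adjusted p = 0.939), with a value of −0.03 on the log2(TPM + 1) scale, and the difference between the times was 0.35 ± 0.144 (edgeR adjusted p = 0.0945). Timp3 lies inside Syn3 on the opposite strand, and Syn3 had 1.27 to 2.96 TPM. The sources used here do not state whether counting used strand, and a share of Syn3 reads in the Timp3 value was not tested.

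Timp1 (ENSMUSG00000001131, chrX:20870166-20874735, + strand) was not called at either time. It had 10.2, 11.5, 12.7 and 10.9 TPM with DMSO and 12.97, 13.1, 10.7 and 13.5 TPM with DOX at 3 days. These TPM values overlapped, because replicate 3 of DOX was low, while in CPM the DOX libraries were all above the DMSO libraries. The log2 fold change was 0.34 ± 0.107 (edgeR adjusted p = 0.359) at 3 days and 0.14 ± 0.107 (edgeR adjusted p = 1.00) at 6 days, where the libraries had 11.5 to 13.5 TPM with DMSO and 11.3 to 13.8 TPM with DOX.

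**Figure D3:**
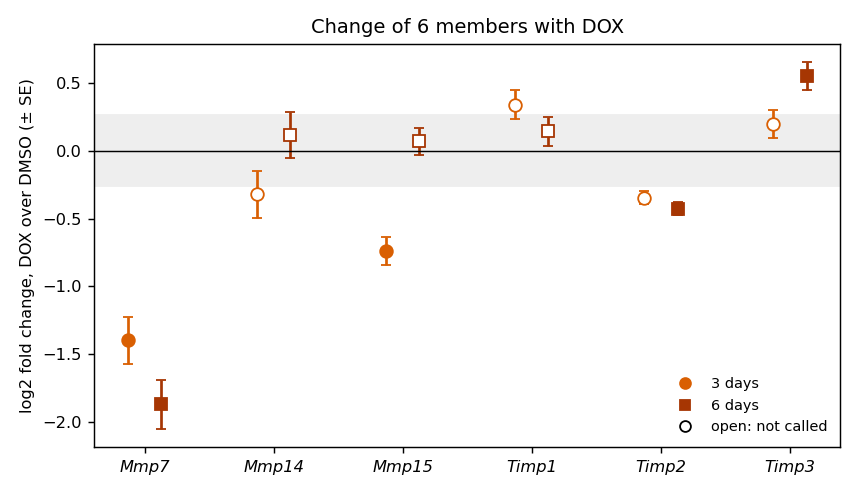
Log2 fold change of DOX over DMSO ± SE for the 6 tested members at 3 days (circles) and 6 days (squares). Filled marks passed the edgeR test against a fold of 1.2 (grey band) and open marks did not. Mmp7 is at −1.40 and −1.87, Mmp15 at −0.74 and 0.07, Timp2 at −0.35 and −0.43, and Timp3 at 0.20 and 0.55.

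At 3 days 2 of the 6 tested members were called, both lower (Mmp7 and Mmp15), beside 12.5% of all 13234 tested genes called, 5.3% higher and 7.22% lower. At 6 days 3 of 6 were called, Mmp7 and Timp2 lower and Timp3 higher, beside 21.6% of all genes called, 10% higher and 11.6% lower. The median log2 fold change of the 6 was −0.33 at 3 days and 0.09 at 6 days, beside 0.00 for all tested genes at both times. In CPM the groups did not overlap for 4 of the 6 at 3 days (Mmp7, Mmp15, Timp1 and Timp2) and for 3 of the 6 at 6 days (Mmp7, Timp2 and Timp3), beside 38.6% and 43% of all tested genes. The difference between the 2 effects was called for 1 of 6, Mmp15, beside 17% of all genes. Only 6 genes stand behind each of these shares.

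No member was called for time alone in the vehicle cells. Between DMSO at 6 and at 3 days, 0 of the 6 tested members were called by edgeR, and 0% of all genes were. At an unadjusted p under 0.05 edgeR had 172 of the 13234 genes, DESeq2 and limma called 0, and none of the members' groups separated in CPM, against 12.3% of all genes. The largest log2 fold change among the members was −0.21 ± 0.171, that of Mmp14. Between DOX at 6 and at 3 days 1 of 6 was called, Mmp15, beside 3.94% of all genes. Timp3 was 0.52 ± 0.100 higher at 6 days on the log2 scale without passing the test (edgeR adjusted p = 0.0522), and Mmp7 differed by −0.43 ± 0.196 (edgeR adjusted p = 0.549). The CPM of Mmp15 and Timp3 did not overlap between these groups, beside 25.4% of all genes.

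The summed TPM of the 3 inhibitors was set against that of the 7 member proteases. The ratio was 13.01 ± 0.807 with DMSO and 22.8 ± 1.94 with DOX at 3 days, and 14.2 ± 1.41 with DMSO and 20.5 ± 2.17 with DOX at 6 days (SD, n = 4 each). For these 7 proteases the ranges did not overlap, from 11.9 to 16.03 over the DMSO and from 17.5 to 24.5 over the DOX libraries. The sum over the proteases went from 13.8 ± 1.54 to 6.10 ± 0.585 TPM at 3 days and from 14.0 ± 1.30 to 7.30 ± 0.840 TPM at 6 days. Mmp7 made up 63.8% ± 3.04 of it with DMSO and 47.6% ± 5.25 with DOX at 3 days, and 66.8% ± 2.39 and 33.6% ± 11.2 at 6 days. Timp2 held 90.3% ± 0.623 of the inhibitor sum with DMSO and 86.6% ± 1.23 with DOX at 3 days, and 90.3% ± 0.597 and 84.8% ± 1.07 at 6 days. The ratio of Timp3 to Timp2 was 0.0378 ± 0.00655 with DMSO and 0.0749 ± 0.00492 with DOX at 6 days. The ratio depends on which proteases are summed. With Mmp11 added to the proteases, a choice made after its values were seen, it was 6.07 ± 0.539 with DMSO and 7.42 ± 0.219 with DOX at 3 days, without overlap, and 6.59 ± 0.201 and 6.22 ± 0.379 at 6 days, where the groups overlapped and the direction turned. Mmp11 itself was not called at either time (log2 fold change −0.10 ± 0.0834 at 3 days and 0.05 ± 0.0824 at 6 days, edgeR adjusted p = 1.00 for both).

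The genes whose log2 CPM was most like that of Mmp7 over the 16 libraries were Igfbp4 (Pearson's r = 0.977), which encodes an insulin-like growth factor binding protein, Cyb5r3 (0.967), a cytochrome b5 reductase, and Gsdma (0.966), a gasdermin. Igfbp4 went from a mean of 16.4 to 4.14 TPM at 3 days and from 15.9 to 3.97 TPM at 6 days. This likeness was shared widely, with 344 tested genes above 0.9. Within groups the r of these 3 genes with Mmp7 was 0.699, 0.615 and 0.643. Among the members, Timp2 was the most like Mmp7 (r = 0.920).

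Among other zinc proteases, ADAM sheddases and their partners were called for 1 of 8 tested genes at 3 days (lower) and for 3 of 8 at 6 days (1 higher, 2 lower), beside 12.5% and 21.6% of all tested genes. Adam8 fell from 9.56 ± 0.720 to 5.59 ± 0.709 TPM at 3 days and from 9.97 ± 0.817 to 4.59 ± 0.388 TPM at 6 days (log2 fold change −0.61 and −1.08, edgeR adjusted p = 0.000585 and 1.38e-08). Adam17, the sheddase of tumor necrosis factor and of EGF receptor ligands, fell by 0.55 ± 0.0646 on the log2 scale at 6 days (edgeR adjusted p = 0.000247), and at 3 days had −0.37 ± 0.0641 (edgeR adjusted p = 0.0991). Rhbdf2, which carries Adam17 to the cell surface, rose by 0.47 ± 0.101 at 6 days (edgeR adjusted p = 0.0351). The medians of the list were −0.24 and −0.15 at 3 and 6 days.

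Of the ADAMTS proteases 6 of 19 passed the filter, and at each time 2 were called lower and 1 higher, beside 12.5% and 21.6% of all tested genes called in either direction. Adamts1, which cleaves proteoglycans and was the most abundant of those called, fell from 87.7 ± 13.05 to 45.6 ± 14.8 TPM at 3 days and from 81.8 ± 14.9 to 52.2 ± 8.56 TPM at 6 days (−0.76 and −0.61, edgeR adjusted p = 0.00423 and 0.0164). Adamts4, an aggrecanase present at under 1 TPM, fell (−0.996 and −1.40, edgeR adjusted p = 0.0173 and 0.00176). Adamts10, linked to fibrillin microfibrils, rose (0.83 and 1.19, edgeR adjusted p = 0.0154 and 0.000176). None of the 2 tested of 5 astacin proteases was called. Of the other inhibitors only Reck passed the filter, a membrane-anchored inhibitor, with a log2 fold change of 0.55 ± 0.167 at 6 days (edgeR adjusted p = 0.0653).

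Plasminogen activators generate plasmin, an activator of several metalloproteinase precursors. In the list of these activators, other activating proteases and serpins 2 of 10 tested genes were called at each time, both lower, beside 7.22% and 11.6% of all tested genes called lower at 3 and 6 days. Plat (tissue plasminogen activator) fell from 123 ± 4.30 to 47.8 ± 7.47 TPM at 3 days and from 124 ± 3.14 to 38.4 ± 1.67 TPM at 6 days (−1.18 and −1.62, edgeR adjusted p = 7.61e-10 and 9.30e-13). Plau (urokinase) fell from 42.3 ± 4.06 to 21.8 ± 2.60 TPM and from 43.7 ± 3.71 to 23.0 ± 1.46 TPM (−0.77 and −0.87, edgeR adjusted p = 4.44e-07 and 1.35e-08). The other 8 genes of the list, with the convertases and the serpins that inhibit these activators, were not called, and the medians over the 10 were −0.27 and −0.01.

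Surface partners and uptake receptors gave 2 higher and 2 lower of 8 tested at 3 days, and 2 higher and 1 lower at 6 days, beside 12.5% and 21.6% of all tested genes called. Lcn2, whose product binds and stabilizes the Mmp9 protein, was at 830 ± 115 and 1063 ± 63.1 TPM with DMSO and DOX at 3 days and at 848 ± 78.2 and 1520 ± 127 TPM at 6 days, and it rose at both (0.56 and 0.90, edgeR adjusted p = 0.00208 and 2.30e-07), beside Mmp9 counts of 0 to 2. Cav1, the caveolar coat protein, rose at both times (0.65 and 0.71, edgeR adjusted p = 1.87e-05 and 1.19e-06). Itgb3, an integrin subunit, fell at 3 days (−0.82 ± 0.185, edgeR adjusted p = 0.0106) and was not called at 6 days (−0.51 ± 0.187, edgeR adjusted p = 0.140). The gene called lower at both times was Itgav (−0.62 and −0.64, edgeR adjusted p = 0.00115 and 0.000353).

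All 13 AP-1 and Ets factors listed passed the filter, and at each time 6 were called lower and 1 higher, beside 7.22% lower and 5.3% higher of all tested genes at 3 days and 11.6% and 10% at 6 days. The medians of the list were −0.57 and −0.58. Jun fell from 17.7 ± 1.76 to 8.75 ± 1.82 TPM at 3 days and from 17.6 ± 1.90 to 7.05 ± 1.18 TPM at 6 days (−0.84 and −1.26, edgeR adjusted p = 1.58e-05 and 7.91e-09). Fos fell from 5.80 ± 1.14 to 2.78 ± 0.315 TPM and from 6.78 ± 0.676 to 3.35 ± 0.526 TPM (−0.85 and −0.97, edgeR adjusted p = 0.000323 and 1.67e-05). Etv5, an Ets factor, rose (0.93 and 1.13, edgeR adjusted p = 2.08e-05 and 4.00e-07). Whether these levels bear on Mmp7, Mmp10 or Mmp13 was not tested.

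**Figure D4:**
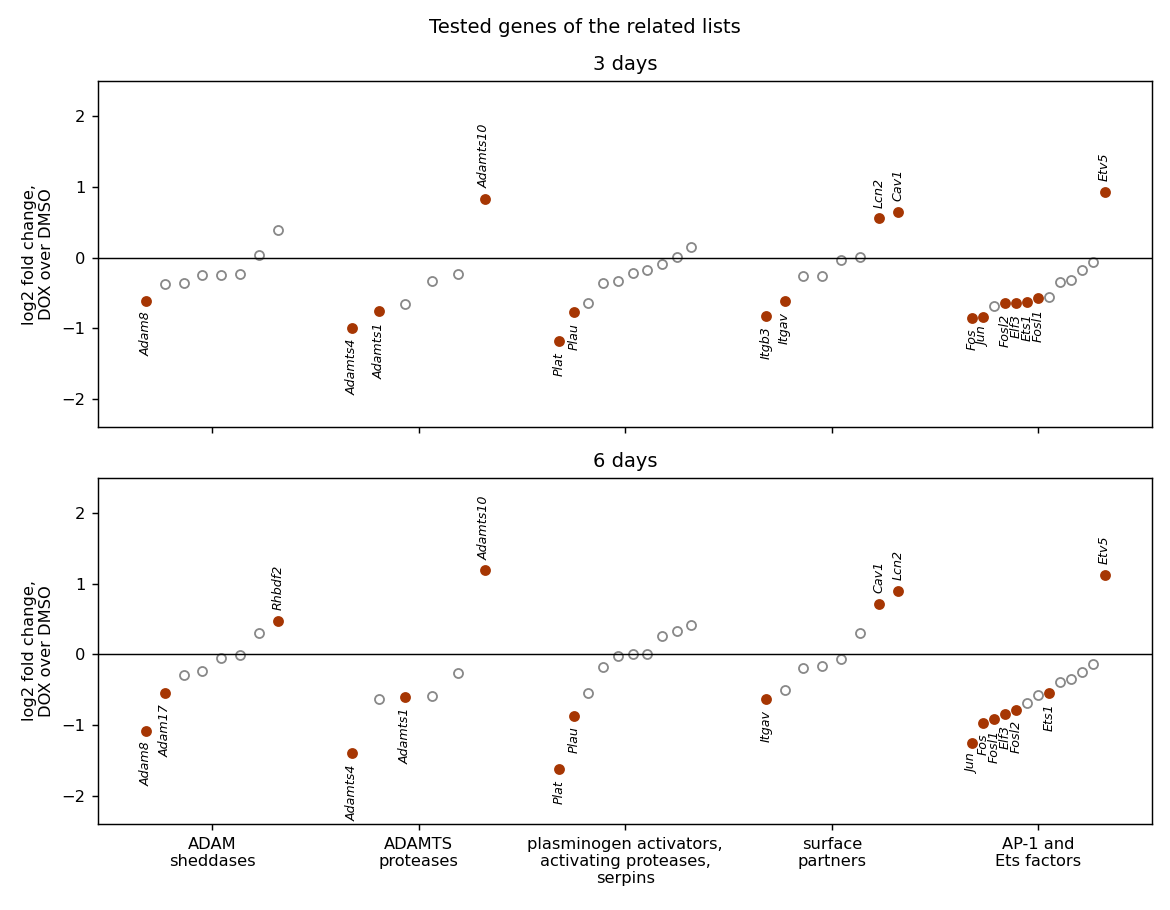
Log2 fold change of DOX over DMSO at 3 days (top) and 6 days (bottom) for the tested genes of 5 related lists, each point being 1 gene sorted within its list. Filled points passed the edgeR test against a fold of 1.2 and carry their names. Plat is at −1.18 and −1.62, Jun at −0.84 and −1.26, and Adamts10 at 0.83 and 1.19.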

How the data were processed

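Per the labels, poly(A) RNA from mIMCD3 cells was made into 16 directional libraries and sequenced in pairs. The authors aligned reads to GRCm38.p6 with STAR and quantified transcripts with salmon, whose version and strand setting are not given in the sources used here. The deposited estimated counts per gene were rounded to whole numbers here before testing, and the deposited TPM values, scaled by transcript length and depth by the authors, were used for levels.

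The members and gene lists were chosen with earlier results of these data known. A gene entered the fit if 4 or more of the 16 libraries reached 1 CPM, which 13234 of 54393 genes did. Fits were made in edgeR 4.0.16 (R 4.3.3) with TMM factors, robust quasi-likelihood and 1 mean per group. DOX and time effects were tested with glmTreat against a fold of 1.2 and the difference between effects with glmQLFTest, two-sided, with Benjamini-Hochberg adjustment over all tested genes, and a call means an adjusted p under 0.05. The SE was derived from the log2 fold change and the quasi-likelihood F. Members below the filter were compared by exact two-sided permutation of CPM. Alternatives were other size factors, DESeq2 1.42.0, limma 3.58.1 on log2(TPM + 1), other filters, no fold threshold, a replicate block, removal of a length trend and leaving out each library. In simulated counts every changed gene moved by 1 on the log2 scale, alike in both DOX groups. Of these 193 genes 92.7% were recovered at 3 days and 88.1% at 6 days among 13060 genes, with 0.556% and 1.16% of the calls false. Smaller changes, such as those of Timp2, Timp3 and Mmp15, were not simulated, so these rates do not cover them. Named genes were all members, up to 3 called genes per list with the largest change, and the 3 genes most correlated with Mmp7. Reck, Mmp11, Syn3, Aqp2, Scnn1a, Mmp12, Mmp17, Mmp19, Mmp20, Mmp23, Mmp24 and Mmp28 and the markers named were added outside this rule, after their values were seen. So were Itgav, Mmp8, Mmp16, Mmp21, Mmp25 and Mmp27. Motifs came from RefSeq promoter windows of GRCm38.p6, matched for 8 of 10 members. Protein motifs were not analysed here.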

Additional observations from a re-analysis of the deposited data

Results flagged for a closer look

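In 4 of 24 groups of 4 libraries examined (the 6 tested members in each group), 1 library stood apart in TPM by Dixon's criterion, which chance alone meets in about 1 of 20 groups. For Mmp14 it was replicate 2 of DOX at 3 days, at 0.804 TPM. For Mmp15 it was replicate 1 of DOX at 6 days, at 2.08 TPM. Timp1 was low at 11.3 TPM in replicate 2 of DOX at 6 days, and Timp3 was high at 9.85 TPM in the same library. In CPM, the scale of the tests, Timp3 had 40.1, 39.1, 36.4 and 34.7 in replicates 1 to 4 of that group. Replicate 2 was thus not the highest on that scale. The criterion was not applied to CPM, so these flags hold for TPM only.

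The effect of DOX differed between 6 and 3 days, by the edgeR test of the difference itself, for 6 of the named genes. The same test called 2252 of all 13234 tested genes (17%). That number was 1370 without replicate 4 of DMSO at 3 days and 3788 without replicate 1 of DOX at 3 days. Named genes of the lists had been picked for large DOX effects at either time. The difference on the log2 scale was 0.81 for Mmp15 (edgeR adjusted p = 0.00127), which was lower with DOX at 3 days and had 3 of 4 DOX libraries within the range of the DMSO libraries at 6 days. It was −0.47 for Adam8 and −0.44 for Plat, with larger falls at 6 days (edgeR adjusted p = 0.00829 and 0.00487). It was −0.42 for Jun (edgeR adjusted p = 0.0318). It was 0.42 for Rhbdf2 and 0.34 for Lcn2, which were higher at 6 days (edgeR adjusted p = 0.0467 and 0.0375).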

How the results depend on the processing

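The calls of Mmp7 and Mmp15 at 3 days and of Mmp7 at 6 days held under every alternative run, as did the difference between times of Mmp15. With no fold threshold 4 members were called at 3 days (Timp1 and Timp2 added) and 2 between the DOX times (Timp3 added). With no filter on low counts 2 were called for the difference between effects and 2 between the DOX times, Timp3 being the addition in both. On log2(TPM + 1) with limma 0 were called between the DOX times. Leaving out single libraries gave 2 to 3 members at 3 days, 3 at 6 days, 0 between the DMSO times, 1 to 2 for the difference between effects (Timp3 without replicate 1 of DOX at 3 days or replicate 3 of DMSO at 6 days, Mmp7 without replicate 1 of DOX at 6 days) and 1 to 2 between the DOX times (Timp3 without replicate 1 of DMSO or DOX at 3 days or replicate 1 or 3 of DMSO at 6 days). Among the members below the filter it gave 0 to 1 with an unadjusted exact permutation p under 0.05 at either time, Mmp13 joining at 3 days without replicate 1 of DMSO.

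For single members, directions that turned belonged to effects that were not called. On log2(TPM + 1) Timp3 at 3 days was −0.0316, and between the DOX times Timp1 was 0.0520 and Timp2 0.0710. That scale moved the median of all genes by −0.15 at 3 days, 0.10 for the difference and 0.16 between the DOX times, and relative to it the 3 values were 0.12, −0.10 and −0.09. With a length trend removed Timp1 was 0.0456 for the difference and 0.11 between the DOX times. Without replicate 1 of DMSO at 6 days Mmp15 at 6 days was −0.0081 (range over single libraries left out, −0.0081 to 0.135). The cause of these changes was not tested. With Mmp11 added to the protease sum, chosen after seeing the data, DOX minus DMSO in the ratio of inhibitors to proteases went from 9.77 to 1.34 at 3 days and from 6.25 to −0.379 at 6 days.

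No pairing by replicate number was seen, as same-numbered libraries did not deviate together (mean r of −0.0955 at 3 days and −0.121 at 6 days). Differently numbered libraries were not compared in this way, so the values cannot show how the samples were handled. With the number as a replicate block 2, 3, 1, 0 and 1 members were called at 3 days, at 6 days, for the difference, between the DMSO and between the DOX times, the same members as without it.

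Over all genes, 1658 were called at 3 days (42.3% higher) against 1019 with DESeq2, 701 with limma (12.1% higher) and 5982 with no fold threshold. At 6 days 2856 were called (46.4% higher) against 1307 (28.8% higher) with limma and 6702 with no threshold. For the difference 2252 were called, against 659 with limma, 183 with a threshold of 1.2, 3788 without replicate 1 of DOX at 3 days, and 1370, 1493 and 1470 without replicate 4 of DMSO at 3 days, 2 of DOX at 3 days and 2 of DMSO at 6 days. Between the DOX times 522 (34.7% higher) were called, against 243 with DESeq2, 86 (52.3% higher) with limma, 4000 (51.6% higher) with no threshold, 311 with the length trend removed, 912 without replicate 1 of DOX at 3 days, and 327 to 341 without replicate 2, 3 or 4 of DOX at 3 days or 2 or 3 of DOX at 6 days. Between the DMSO times 0 were called, against 62 with no threshold and 6 with no filter. Depth limited Mmp2, Mmp9, Mmp10 and Mmp13 most, with at most 14 counts in a library.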

Other observations

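The chromosome 9 cluster holds 10 metalloproteinase genes from Mmp13 to Mmp7. The next gene before Mmp7, Mmp20, ends 17.1 kb before its start and had few counts, 29 summed over the 4 DMSO libraries and 12 over the DOX libraries at 3 days, and 27 and 4 at 6 days. Mmp12, a macrophage elastase gene, had 39.3 and 12.2 counts at 3 days and 21.8 and 10.8 at 6 days. Its annotation overlaps that of Mmp1b on the other strand, which had 0 to 2 counts per library. Not all genes of the cluster had fewer counts with DOX. Mmp27 had 6 and 10 counts at 3 days and 4 and 5 at 6 days, and Mmp8 had 1 and 2, and 5 and 6. Mmp7 had 543 and 194, and 533 and 161 counts. The summed level of the 9 cluster genes other than Mmp7 was 1.49 ± 0.390 CPM with DMSO and 0.880 ± 0.0929 CPM with DOX at 3 days, and 1.49 ± 0.524 and 0.792 ± 0.200 CPM at 6 days (SD, n = 4 each). The CPM of this sum were scaled by the library total alone, without the TMM factors used for the CPM of single genes. These ranges overlapped at both times, from 0.936 to 1.82 CPM against 0.751 to 0.972 CPM at 3 days and from 0.908 to 2.09 CPM against 0.506 to 0.952 CPM at 6 days. Outside the cluster, other matrix metalloproteinases below the filter went both ways at 6 days. The groups did not overlap for Mmp19, Mmp23 and Mmp28, which were higher with DOX (means 0.420 to 1.28, 0.370 to 0.833 and 0.323 to 1.12 CPM). Nor did they for Mmp17 and Mmp24, which were lower (0.412 to 0.149 and 0.432 to 0.234 CPM). For Mmp16, Mmp21 and Mmp25, also outside the cluster and below the filter, the groups overlapped. Of all tested genes 43% did not overlap, but those genes had passed the filter, so that share is for genes of higher count. Mmp20, Mmp12, Mmp27, Mmp8 and those outside the cluster were picked after their values were seen, and no test was run on them.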
